A study of Mus musculus with 8 samples.

Results

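The genes of the TNF superfamily, its ligands and its receptors, were followed in ATAC-seq data from liver sinusoidal endothelial cells (LSECs) with and without the transcription factor c-Maf. Members were the rows of the deposited peak table whose gene name begins with Tnfsf or Tnfrsf, or is Tnf, Lta, Ltb, Ltbr, Fas, Fasl, Cd40, Cd27 or Cd70. The rule found 102 peaks at 34 gene names, 15 ligands and 19 receptors, of 58522 peaks and 17780 gene names in all. Names that fit the rule but had no row, among them Ltb, Cd27, Tnfsf4, Tnfrsf4, Tnfrsf11b, Tnfrsf13c and Tnfrsf19, were not analysed here. A peak carries the name of the gene with the nearest transcription start, so a distal peak is a neighbour of its gene and not a proven regulator of it.

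ATAC-seq measures open chromatin as reads from sites cut by the Tn5 transposase. The 4 MafLSEC-KO libraries came from mice with a Clec4g-iCre transgene and both Maf alleles floxed (Clec4g-iCre tg/wt, Maf fl/fl). The 4 control libraries came from littermates without the Cre transgene that carried floxed Maf alleles as well (Maf fl/fl or fl/wt). All mice were 12 weeks old, and 50000 cells per library, selected on magnetic beads for the endothelial protein CD146, were used. The Cre is driven by a transgene built from Clec4g, a gene of sinusoidal endothelium, while CD146 is also carried by endothelium of larger vessels. The labels name 3 mice, and the methods describe pooling of liver tissue from 3 mice, but neither source says how the libraries relate to the mice. The p-values therefore measure the spread between these libraries, which may be technical.

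The libraries held 6783573 to 11614365 reads in peaks in MafLSEC-KO LSECs and 5367124 to 13364062 in control LSECs, and member peaks took 0.132% to 0.147% of them. CPM below is the read count scaled to library size, as edgeR computes it with TMM factors over the reads in listed peaks. All 13 sinusoidal and all 8 general endothelial marker genes had peaks, although 5 sinusoidal markers (Stab2, Lyve1, Fcgr2b, Dnase1l3 and Wnt2) fell and 2 (Clec4g and Cd209a) rose in MafLSEC-KO. Clec4g rose by 1.68 and Cd209a by 2.15 on the log2 scale. Only MafLSEC-KO mice carried the transgene built from Clec4g. Reads from the transgene cannot be told apart from reads of the gene itself, and its part in these values was not tested. Peaks were present at 7 of 11 macrophage markers, with none listed at Vsig4, Marco, Timd4 or Itgam, and at 6 of 15 lymphocyte markers, with none listed at Cd3e, Cd8a or Ncr1.

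Ligands of this superfamily are trimeric proteins, mostly held in the membrane, that cluster receptors on neighbouring cells. Some receptors carry a death domain and can start apoptosis (Fas, TNF receptor 1, TRAIL receptors), while others recruit TRAF adaptors and activate NF-kB and MAP kinases. Endothelial cells respond to TNF with expression of leukocyte adhesion molecules, and many other pairs of the family act as costimulatory signals between antigen-presenting cells and lymphocytes.

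Changes at the family were found at single elements in both directions and were about as frequent as elsewhere in the genome. Of 101 member peaks tested, 12 were higher in MafLSEC-KO LSECs (11.9%, against 8.97% of all tested peaks) and 7 were lower (6.9%, against 6.45% of all). A peak or gene sum was called at an adjusted p under 0.05 in edgeR's quasi-likelihood test, with Benjamini-Hochberg adjustment over all peaks or all genes. The peaks that rose lay at 7 genes, 6 of them receptors, and the peaks that fell lay at 6 other genes, 4 of them ligands. No member gene had called peaks in both directions. The share of such genes over all genes was not computed, and member genes had a median of 2 peaks. Among the 40 ligand peaks, 3 rose and 4 fell, and among the 61 receptor peaks, 9 rose and 3 fell. The median log2 fold change was 0.05 over the member peaks and -0.004 over all peaks.

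**Figure D1:**
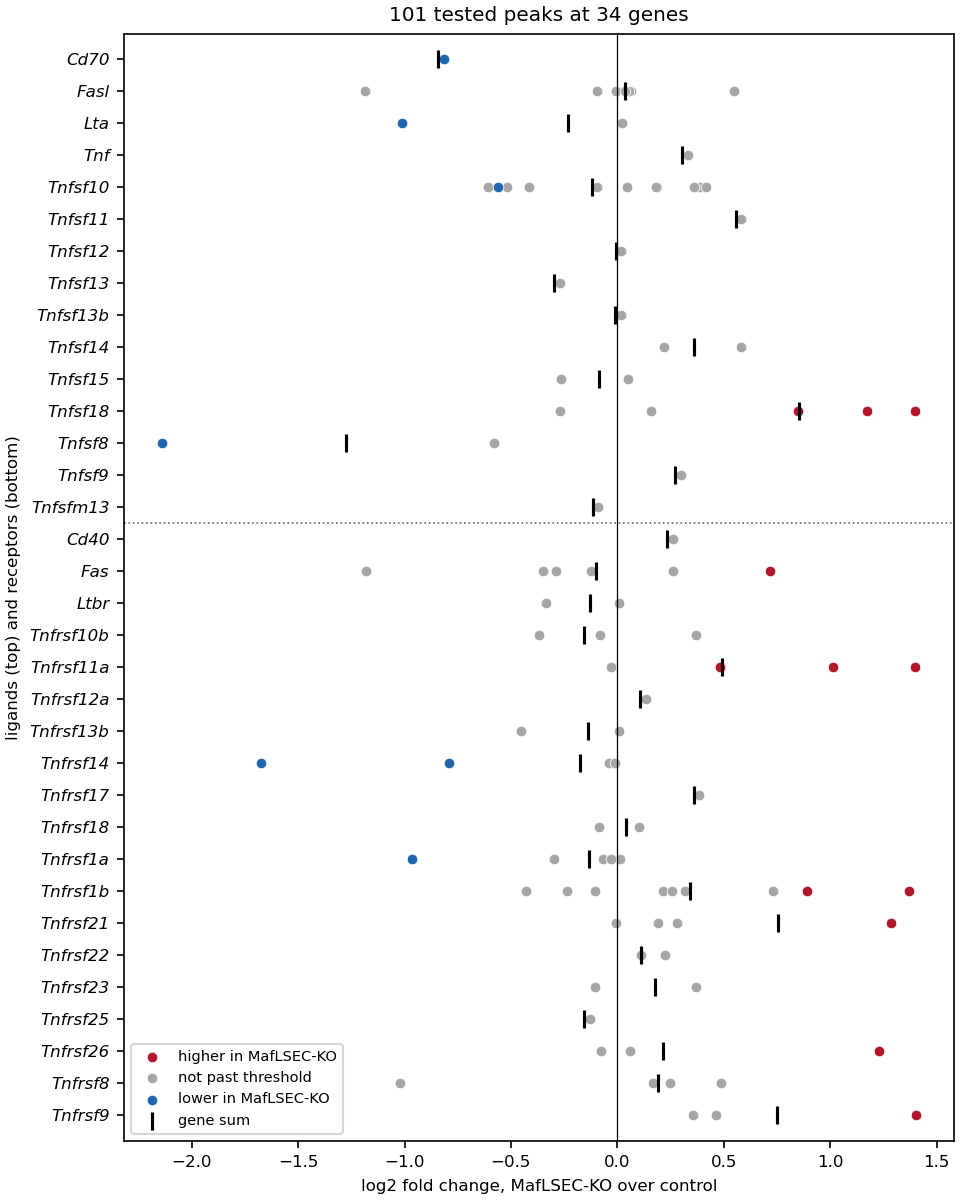
Log2 fold change (MafLSEC-KO over control, x axis) of each of the 101 tested member peaks, by gene, with ligands above the dotted line and receptors below it. Red points rose, blue points fell, grey points did not pass the test, and black bars mark the gene sum. The peaks that passed extend to 1.40 above 0 and to -2.14 below it, and most sit beside grey peaks of the same gene.

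When raw counts were summed over all peaks of a gene, 3 of 34 sums rose (8.8%, against 5.65% of 17745 sums tested) and 2 fell (5.9%, against 4.05%). Sums rose at the ligand Tnfsf18 and the receptors Tnfrsf9 and Tnfrsf11a, and fell at the ligands Tnfsf8 and Cd70. The other 29 sums did not pass the test, with log2 fold changes between -0.30 and 0.75, 21 of them within 0.25 of 0. The values of the 4 MafLSEC-KO and the 4 control libraries did not overlap for 6 member sums, 3 above and 3 below, where 9.04% of all sums lay above and 7.18% below. For single member peaks the groups were apart at 13 with MafLSEC-KO above (all peaks: 11.1%) and at 10 with MafLSEC-KO below (all peaks: 8.28%).

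**Figure D2:**
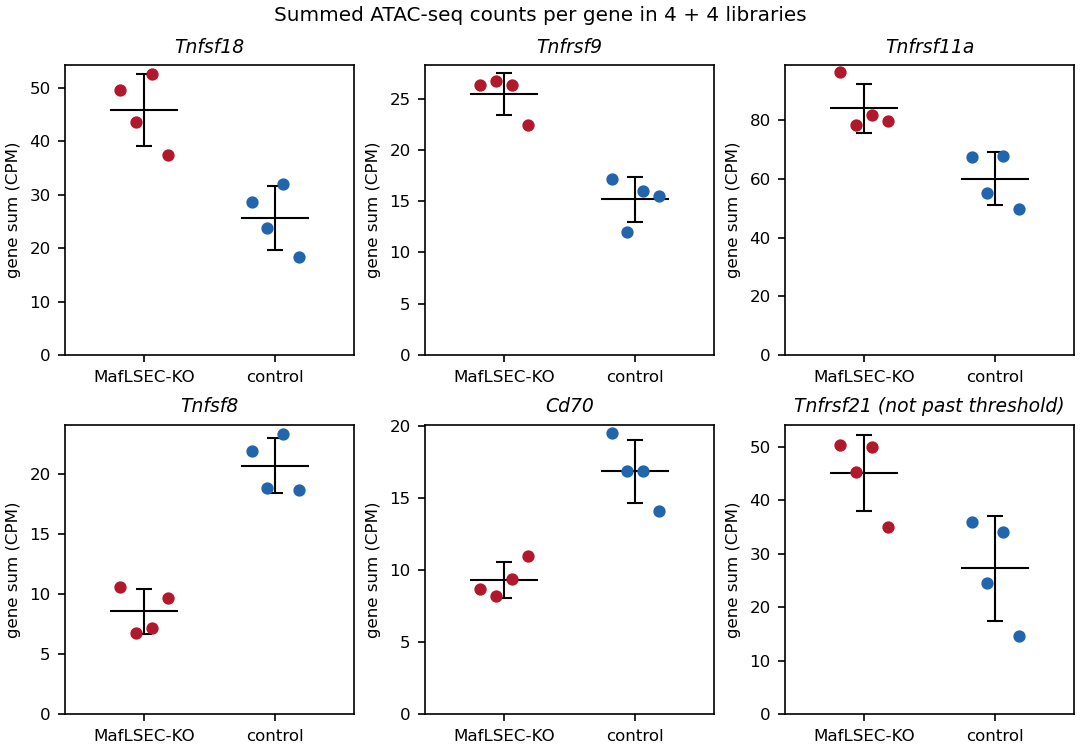
Gene sums in CPM (y axis, from 0) for the 5 genes that passed the test and for Tnfrsf21, which did not; each point is 1 library, and bars give the mean ± SD of 4 libraries. At Tnfsf18 the MafLSEC-KO libraries sit between 37.4 and 52.6 CPM, above the control libraries at 18.4 to 32.0 CPM, and at Tnfsf8 they sit between 6.78 and 10.6 CPM, below the control libraries at 18.7 to 23.3 CPM.

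Among the ligands, Tnfsf18, which encodes the GITR ligand, a costimulatory protein for T cells, was more open in MafLSEC-KO LSECs at its promoter and at distal elements. Its 5 peaks summed to 337, 483, 510 and 438 raw reads in MafLSEC-KO libraries 1 to 4, against 155, 194, 180 and 239 in control libraries 1 to 4. Scaled for depth these were 49.7, 43.6, 52.6 and 37.4 CPM in MafLSEC-KO and 28.6, 23.7, 32.0 and 18.4 CPM in control. All 4 knockout libraries were above all 4 control libraries, with a log2 fold change of 0.85 ± 0.17 (SE, adjusted p = 0.00626). Within both groups replicate 3 was the highest and replicate 4, the deepest library of its group, the lowest.

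Tnfsf18 had 3 peaks that rose. The strongest by its p lay 13.1 kb downstream of the start, between genes, and held 19.5, 16.96, 21.4 and 14.2 CPM in MafLSEC-KO libraries, against 7.99, 9.21, 9.61 and 5.57 CPM in control libraries. The groups did not overlap, and the log2 fold change was 1.17 ± 0.20 (SE, adjusted p = 0.000562). The promoter peak, centred 40 bases upstream of the start, rose by 0.85 on the log2 scale, and a peak 103.8 kb downstream rose by 1.40. The other Tnfsf18 peaks, 6.2 kb and 119.3 kb downstream, did not pass, with log2 fold changes of 0.16 and -0.27. The promoter was the single member promoter of 12 that passed, so its sequence is shown with that of the strongest gained element (plus strand, mm10/GRCm38, the upstream bases from RefSeq GRCm38.p6). Capitals mark matches to 1 of 5 motifs, and the motifs were chosen after the values were seen.
Tnfsf18 upstream of the start, chr1:161494407-161494656: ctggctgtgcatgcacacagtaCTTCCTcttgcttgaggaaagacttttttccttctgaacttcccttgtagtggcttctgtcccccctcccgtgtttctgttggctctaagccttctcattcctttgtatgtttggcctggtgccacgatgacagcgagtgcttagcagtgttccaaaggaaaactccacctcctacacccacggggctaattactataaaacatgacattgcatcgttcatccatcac
Tnfsf18 downstream element, centre of the peak, chr1:161507570-161507869: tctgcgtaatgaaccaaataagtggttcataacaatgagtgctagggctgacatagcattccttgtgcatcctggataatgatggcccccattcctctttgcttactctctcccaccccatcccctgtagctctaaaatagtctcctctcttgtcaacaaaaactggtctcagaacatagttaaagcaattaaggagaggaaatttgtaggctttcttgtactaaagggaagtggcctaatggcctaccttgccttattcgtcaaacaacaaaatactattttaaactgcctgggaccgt
Both strands were searched. The motif of AP-1, the dimer of FOS and JUN proteins, was taken as TGANTCA. The core of the MAF recognition element, which c-Maf and other MAF proteins bind, was taken as TGCTGA, and its end can also be the start of an AP-1 motif. The motif of ETS factors, which are general to endothelium, was taken as AGGAAG. That of GATA factors, of which GATA4 is known from LSECs, was taken as AGATAA, and the last motif was that of NF-kB. The upstream stretch held 1 ETS match, where 29.5% of 32851 promoters in the RefSeq table hold at least 1. The downstream window held no match to any of the 5.

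Fasl, which encodes Fas ligand, the trigger of Fas-mediated apoptosis, is the neighbour of Tnfsf18 on chromosome 1, and both sets of peaks span 316.1 kb. None of its 7 peaks passed, with log2 fold changes between -1.18 and 0.55. Its sum was 70.1, 56.0, 56.1 and 56.0 CPM in MafLSEC-KO libraries, against 71.0, 51.3, 62.6 and 48.1 CPM in control libraries. The groups overlapped, with a log2 fold change of 0.04 ± 0.13 (SE, adjusted p = 0.901).

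**Figure D3:**
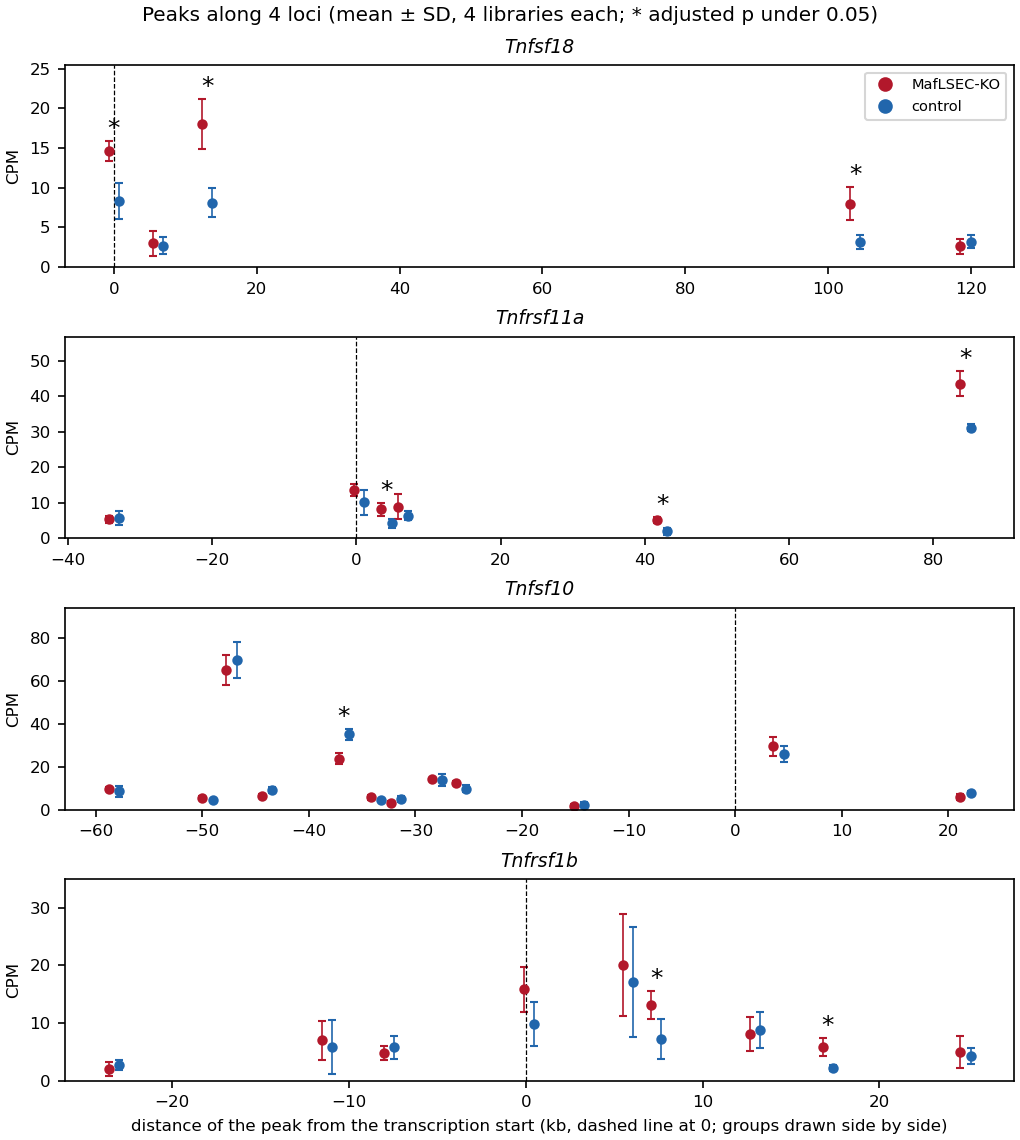
Mean CPM ± SD (4 libraries per group) of each tested peak at Tnfsf18, Tnfrsf11a, Tnfsf10 and Tnfrsf1b, against its distance in kb from the transcription start (dashed line). Stars mark the peaks that passed the test: 3 of 5 at Tnfsf18, 3 of 6 at Tnfrsf11a, 1 of 12 at Tnfsf10 and 2 of 9 at Tnfrsf1b.

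The member element with the smallest p lay at Tnfsf8, the gene for CD30 ligand, a membrane protein of activated lymphocytes and antigen-presenting cells. This peak, 36.9 kb downstream of the start (chr4:63824145-63824553, between genes), held 18, 20, 34 and 27 raw reads in MafLSEC-KO libraries, against 69, 83, 58 and 165 in control libraries. In CPM these were 2.66, 1.84, 3.55 and 2.3 in MafLSEC-KO and 12.5, 10.3, 10.1 and 12.4 in control. Every knockout library was far below every control library, and the log2 fold change was -2.14 ± 0.24 (SE, adjusted p = 7.06e-06). The other Tnfsf8 peak, 87.1 kb upstream, had a log2 fold change of -0.58 and did not pass (adjusted p = 0.162). The sum of both was 10.6, 6.78, 7.22 and 9.65 CPM in MafLSEC-KO and 22.0, 18.8, 23.3 and 18.7 CPM in control, a log2 fold change of -1.27 ± 0.18 (SE, adjusted p = 0.000757). The adjacent Tnfsf15, which encodes TL1A, a ligand made by endothelium, had a log2 fold change of its sum of -0.09, with 21.7, 18.1, 16.3 and 17.2 CPM in MafLSEC-KO and 21.8, 17.6, 22.2 and 16.6 CPM in control.

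The centre of the lost Tnfsf8 element is shown because it had the lowest p of all member peaks and held the most matches to the MAF core (plus strand, mm10/GRCm38).
Tnfsf8 downstream element, chr4:63824200-63824499: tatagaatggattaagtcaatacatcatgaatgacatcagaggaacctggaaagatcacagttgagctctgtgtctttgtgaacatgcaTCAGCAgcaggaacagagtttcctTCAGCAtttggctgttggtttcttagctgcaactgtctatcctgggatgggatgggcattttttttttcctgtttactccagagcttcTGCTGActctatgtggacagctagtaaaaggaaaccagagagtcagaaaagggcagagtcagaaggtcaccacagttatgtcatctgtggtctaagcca
It held 3 matches to TGCTGA, all in capitals. A window of 300 bases at the peak centre held at least 1 such match in 22.4% and at least 3 in 0.48% of 47128 peaks of that width or more. The element was picked in part for its matches, so these shares do not measure how unusual it is. Over the windows of this width at called member peaks, the MAF core was found in 3 of 11 that rose and 1 of 6 that fell. The lost Tnfrsf14 element 5.6 kb upstream, which is narrower than this window, held 1 match as well.

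Cd70, the ligand of CD27 on T cells, had 1 peak, 17.6 kb upstream of its start (chr17:57167052-57167686, between genes), and it fell. Raw reads were 59, 91, 91 and 129 in MafLSEC-KO libraries, against 106, 138, 95 and 184 in control libraries. They gave 8.71, 8.39, 9.51 and 11.01 CPM in MafLSEC-KO and 19.3, 17.2, 16.6 and 13.9 CPM in control, without overlap. The log2 fold change was -0.82 ± 0.18 (SE, adjusted p = 0.00326). The neighbouring ligands Tnfsf9 (CD137 ligand) and Tnfsf14 (LIGHT) did not pass, with log2 fold changes of their sums of 0.27 and 0.36.

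Lta, the gene for lymphotoxin alpha, lost an element while its stronger peak varied widely. The element 4.8 kb upstream (between genes) had 7.67, 8.48, 9.61 and 6.66 CPM in MafLSEC-KO libraries, against 11.8, 17.3, 16.8 and 19.05 CPM in control libraries. The groups were apart, with a log2 fold change of -1.01 ± 0.19 (SE, adjusted p = 0.00119). A peak 13.8 kb upstream held 34.4 to 44.5 CPM in MafLSEC-KO and 23.6 to 58.5 CPM in control, so that the sum did not pass (log2 fold change -0.23 ± 0.18, adjusted p = 0.495). The value of the sum rested on single libraries, at -0.020 without control replicate 4 (adjusted p = 0.946) and -0.391 without control replicate 1 (adjusted p = 0.117). With log2 library total as a covariate it was -0.358 and passed (adjusted p = 0.0282), as it did without control replicates 1 and 3 together (-0.509, adjusted p = 0.0144). Tnf itself, the founding cytokine, lies beside Lta and had 1 peak, over its start, with 12.2, 10.8, 9.07 and 10.9 CPM in MafLSEC-KO and 11.4, 7.22, 7.12 and 9.14 CPM in control as gene sums. The groups overlapped, and the log2 fold change was 0.30 ± 0.20 (SE, adjusted p = 0.411).

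Tnfsf8, Cd70 and Lta are best known from lymphocytes, and some lymphocyte markers had peaks in these libraries. These genes were named because each had a lost element, and the sum of Lta did not pass. Other members linked to lymphocytes did not fall. The sum of Tnfrsf9 rose (log2 fold change 0.75), and those of Tnfrsf13b, Tnfrsf17, Tnfrsf18 and Tnfrsf25 had no call (-0.16 to 0.36). The 6 of 15 lymphocyte markers with peaks (Cd3d, Cd2, Lck, Cd79b, Tbx21 and Ptprc) summed to 134 to 152 CPM in MafLSEC-KO libraries and 160 to 194 CPM in control libraries, lower in all 4 knockout libraries, while none of the 6 passed the test alone. Most of this gap was at Lck, with 43.9, 45.4, 35.7 and 52.1 CPM in MafLSEC-KO and 46.9, 71.2, 47.3 and 88.1 CPM in control, which overlapped. The log2 fold changes were -0.53 at Lck, -0.51 at Cd3d and -0.18 at Tbx21, against -0.06, -0.01 and -0.02 at Cd2, Cd79b and Ptprc. The 7 of 11 macrophage markers with peaks summed to 110 to 127 CPM in MafLSEC-KO and 115 to 140 CPM in control, and the 6 of 8 stellate cell markers with peaks to 40.6 to 44.8 CPM in MafLSEC-KO and 51.5 to 63.5 CPM in control. Of the stellate markers Col1a2, a collagen gene, fell, with 12.3 ± 2.5 CPM in MafLSEC-KO and 23.2 ± 5.0 CPM in control (SD, n = 4; log2 fold change -0.91, adjusted p = 0.00907 in edgeR), and the other 5 did not pass, with log2 fold changes between -0.32 and -0.09. In the paper's flow cytometry of cells isolated this way, a smaller share carried the endothelial proteins LYVE1 or CD31 in MafLSEC-KO than in control. A larger share carried the myeloid protein CD11b. The part of these other cells in the lost elements was not tested, and fewer cells of a type cannot be told apart from less open chromatin per cell.

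Tnfsf10 encodes TRAIL, which kills sensitive cells through death receptors, and had the most peaks of the family, 12. A single one passed: the peak 36.7 kb upstream, inside an intron of the neighbouring gene Nceh1 (chr3:27279471-27281212), with 20.1, 25.3, 24.7 and 24.9 CPM in MafLSEC-KO and 36.9, 35.5, 31.3 and 36.5 CPM in control. It was lower in every knockout library, by a log2 fold change of -0.56 ± 0.13 (SE, adjusted p = 0.00672). The other 11 peaks had log2 fold changes between -0.61 and 0.42. The sum was 169, 186, 178 and 193 CPM in MafLSEC-KO and 202, 195, 180 and 209 CPM in control (log2 fold change -0.12 ± 0.08, adjusted p = 0.426). Its receptor in the mouse, Tnfrsf10b, had 3 peaks and 44.5, 41.5, 44.1 and 40.4 CPM in MafLSEC-KO, against 41.3, 45.5, 48.6 and 53.8 CPM in control. Those groups overlapped as well (log2 fold change -0.16 ± 0.11, adjusted p = 0.431).

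The other ligands, Tnfsf11, Tnfsf12, Tnfsf13, Tnfsf13b and Tnfsfm13, had 1 peak each and no call. The single peak of Tnfsf11, which encodes RANKL, was thinly covered, with 4.13, 3.52, 4.43 and 3.33 CPM in MafLSEC-KO and 4.24, 2.81, 2.13 and 1.61 CPM in control (log2 fold change 0.56 ± 0.33, adjusted p = 0.335). Tnfsf12, which encodes TWEAK, had 13.7, 11.4, 6.8 and 15.3 CPM in MafLSEC-KO and 6.64, 10.9, 11.7 and 17.1 CPM in control (log2 fold change -0.01 ± 0.28, adjusted p = 0.992). Tnfsf13, which encodes the B cell survival factor APRIL, had 14.7, 15.9, 11.9 and 15.5 CPM in MafLSEC-KO and 16.98, 17.7, 13.9 and 22.0 CPM in control, with overlap (log2 fold change -0.30 ± 0.17, adjusted p = 0.329). The related factor Tnfsf13b (BAFF) had a log2 fold change of -0.01, and the name Tnfsfm13, a locus that spans Tnfsf12 and Tnfsf13, of -0.11. Overlapping transcripts make the split of reads between Tnfsf12, Tnfsf13 and Tnfsfm13 uncertain.

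Among the receptors, Tnfrsf9, which encodes the costimulatory receptor CD137, was more open in all 4 knockout libraries. Its 3 peaks summed to 179, 296, 255 and 263 raw reads in MafLSEC-KO, against 93, 98, 90 and 202 in control. The scaled sums were 26.4, 26.7, 26.3 and 22.5 CPM in MafLSEC-KO and 17.2, 11.99, 16.01 and 15.5 CPM in control. They did not overlap, and the log2 fold change was 0.75 ± 0.15 (SE, adjusted p = 0.00552). The gain was concentrated in a peak 2.3 kb upstream of the start (chr4:150917752-150918009), where GENCODE M21 places introns of Tnfrsf9 and of the overlapping gene Camta1. It held 10.6, 12.2, 12.6 and 8.79 CPM in MafLSEC-KO and 4.18, 2.86, 2.79 and 6.25 CPM in control, a log2 fold change of 1.40 ± 0.25 (SE, adjusted p = 0.000817). With promoter peaks alone the sum of Tnfrsf9 did not pass (log2 fold change 0.395, adjusted p = 0.371).

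Tnfrsf11a encodes RANK, the receptor of RANKL, which drives osteoclast formation and lymph node development. It gained accessibility at 3 of its 6 peaks, all on the downstream side of its start. Its sum was 654, 867, 793 and 933 raw reads in MafLSEC-KO and 365, 451, 381 and 646 in control, or 96.4, 78.3, 81.8 and 79.6 CPM in MafLSEC-KO and 67.4, 55.2, 67.8 and 49.6 CPM in control. The groups were apart, with a log2 fold change of 0.49 ± 0.12 (SE, adjusted p = 0.0206). This call was lost without MafLSEC-KO replicate 1 (0.413, adjusted p = 0.080), without control replicate 2 (0.449, adjusted p = 0.0815) and with peaks within 50 kb of the start alone (0.523, adjusted p = 0.112).

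The Tnfrsf11a peak with the smallest p lay in an intron 42.4 kb downstream (chr1:105822934-105823269). It was small, with 43, 48, 44 and 57 raw reads in MafLSEC-KO, against 19, 11, 11 and 17 in control, which gave 6.34, 4.42, 4.60 and 4.86 CPM in MafLSEC-KO and 3.45, 1.37, 1.92 and 1.28 CPM in control. The log2 fold change was 1.40 ± 0.33 (SE, adjusted p = 0.0069). The other peaks that rose were an intronic one 4.2 kb downstream (log2 fold change 1.01) and the largest of the locus, between genes 84.5 kb downstream (0.48). That large peak made up 50.4% to 54.0% of the gene sum in MafLSEC-KO and 45.8% to 63.6% in control. Without MafLSEC-KO replicate 3 the peak 4.2 kb downstream did not pass (0.854, adjusted p = 0.0676).

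Both receptors of TNF had called peaks. Tnfrsf1a encodes TNF receptor 1, the death domain receptor through which most cells respond to TNF. It had the highest control level per kilobase of the family, and its sum was 143, 142, 129 and 143 CPM in MafLSEC-KO and 144, 159, 133 and 172 CPM in control. That did not pass (log2 fold change -0.13 ± 0.09, adjusted p = 0.444), and neither did its promoter peak (log2 fold change -0.07). A small peak at the 3′ end of the gene, 12.3 kb downstream (chr6:125361844-125362174, in the UTR), fell, with 4.28, 3.13, 5.75 and 5.97 CPM in MafLSEC-KO and 7.08, 7.71, 12.2 and 10.4 CPM in control. Its log2 fold change was -0.96 ± 0.25 (SE, adjusted p = 0.0123), and without MafLSEC-KO replicate 2 it was -0.798 (adjusted p = 0.058).

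Tnfrsf1b encodes TNF receptor 2, which has no death domain and signals through TRAF2. It had 9 peaks, and 2 intronic ones rose. The one 17.1 kb downstream of the start (chr4:145229571-145230010) held 7.67, 4.79, 6.58 and 4.35 CPM in MafLSEC-KO and 2.36, 1.62, 2.79 and 2.26 CPM in control. No control library reached the lowest knockout library, and the log2 fold change was 1.37 ± 0.29 (SE, adjusted p = 0.00308). The one 7.4 kb downstream rose by 0.89 on the log2 scale (adjusted p = 0.0223), but control replicate 3, at 12.4 CPM, overlapped the knockout range of 9.64 to 15.2 CPM. It did not pass without MafLSEC-KO replicate 1 (0.875, adjusted p = 0.0556), 2 (0.807, adjusted p = 0.086) or 3 (0.841, adjusted p = 0.0669), nor without control replicate 1 (0.779, adjusted p = 0.0605) or 2 (0.760, adjusted p = 0.101). The gene sum was 107, 72.9, 95.6 and 48.9 CPM in MafLSEC-KO and 75.5, 48.5, 96.6 and 37.7 CPM in control. These ranges overlapped widely, and the log2 fold change of 0.34 ± 0.28 did not pass (adjusted p = 0.507). In both groups the sum was lower in the 2 deeper libraries (replicates 2 and 4) than in the 2 shallower ones (replicates 1 and 3). With log2 library total as a covariate it passed (0.720, adjusted p = 7.9e-05), as it did without the shallow control replicates 1 and 3 (0.911, adjusted p = 0.0109). The neighbouring CD30 gene, Tnfrsf8, had 38.3, 37.3, 38.0 and 30.3 CPM in MafLSEC-KO and 41.0, 28.8, 36.5 and 21.4 CPM in control (log2 fold change 0.19 ± 0.18, adjusted p = 0.574).

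At Tnfrsf21, which encodes death receptor 6, a death domain receptor, the gain was at the transcription start. The peak centred 394 bases downstream of the start, over the 5′ UTR (chr17:43016243-43017656), held 204, 314, 331 and 291 raw reads in MafLSEC-KO and 75, 91, 105 and 90 in control. In CPM these were 30.1, 28.9, 34.6 and 24.8 in MafLSEC-KO and 13.6, 11.3, 18.3 and 6.78 in control. The groups did not overlap, and the log2 fold change was 1.28 ± 0.22 (SE, adjusted p = 0.00055). The other 3 peaks tested had log2 fold changes between -0.01 and 0.28, and the remaining one, 66.8 kb upstream, had too few reads to be tested. The sum was 50.2, 45.3, 50.0 and 34.9 CPM in MafLSEC-KO and 36.0, 24.5, 33.98 and 14.7 CPM in control, and overlapped at 1 knockout and 1 control library. Its log2 fold change of 0.75 ± 0.23 missed the threshold (adjusted p = 0.0558). It passed when MafLSEC-KO replicate 4 (0.859, adjusted p = 0.0467) or control replicate 1 (0.919, adjusted p = 0.0292), 3 (0.885, adjusted p = 0.0349) or 4 (0.526, adjusted p = 0.0262) was left out, and in DESeq2 (0.737, adjusted p = 0.0221). It did not pass without MafLSEC-KO replicate 1 (0.69, adjusted p = 0.15), 2 (0.737, adjusted p = 0.134) or 3 (0.697, adjusted p = 0.147). Nor did it pass without control replicate 2 (0.706, adjusted p = 0.16). With log2 library total as a covariate it was 1.096 (adjusted p = 1.73e-07).

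**Figure D4:**
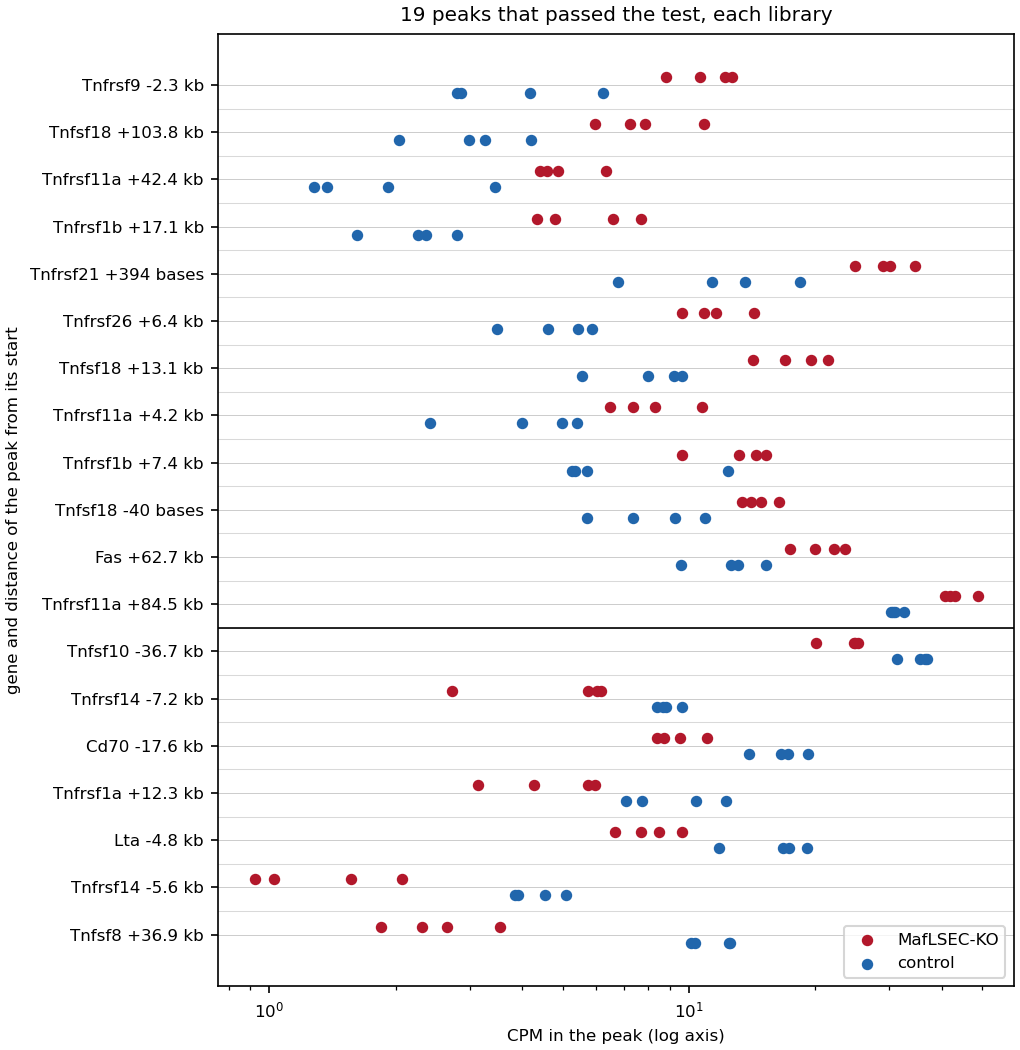
CPM (x axis, log scale) in each library for the 19 member peaks that passed the test, labelled by gene and distance from the transcription start, with peaks that rose above the black line and peaks that fell below it. MafLSEC-KO points (red, upper row of each pair) and control points (blue, lower row) do not overlap at 18 of the 19 peaks, the exception being Tnfrsf1b 7.4 kb downstream.

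Tnfrsf14 encodes HVEM, the receptor of LIGHT and of lymphotoxin alpha and a partner of the inhibitory receptor BTLA. It lost 2 small elements beside 2 larger peaks with log2 fold changes of -0.04 and -0.01. The element 5.6 kb upstream (chr4:154933532-154933728, between genes) held 14, 10, 15 and 12 raw reads in MafLSEC-KO and 25, 41, 22 and 52 in control, or 2.07, 0.922, 1.57 and 1.02 CPM in MafLSEC-KO and 4.54, 5.10, 3.84 and 3.92 CPM in control. Every knockout library was lower, with a log2 fold change of -1.68 ± 0.34 (SE, adjusted p = 0.00223). The element 7.2 kb upstream fell by 0.79 on the log2 scale (adjusted p = 0.0349), with 2.73 to 6.18 CPM in MafLSEC-KO and 8.38 to 9.63 CPM in control. It did not pass without MafLSEC-KO replicate 3 (-0.848, adjusted p = 0.0585) or 4 (-0.575, adjusted p = 0.0932), nor without control replicate 1 (-0.765, adjusted p = 0.0609) or 2 (-0.806, adjusted p = 0.0763). The Tnfrsf14 sum was 76.8, 71.2, 72.6 and 69.5 CPM in MafLSEC-KO and 82.3, 79.4, 84.3 and 81.3 CPM in control. These were apart by a narrow margin, and the log2 fold change of -0.17 ± 0.09 did not pass (adjusted p = 0.239).

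Fas, the death receptor of Fas ligand, had 6 peaks, of which the most distal, 62.7 kb downstream (chr19:34352797-34353933, between genes), rose. It held 23.5, 17.4, 19.95 and 22.1 CPM in MafLSEC-KO and 15.3, 9.58, 12.6 and 13.1 CPM in control, with a log2 fold change of 0.72 ± 0.17 (SE, adjusted p = 0.00764). Its other 5 peaks had log2 fold changes between -1.18 and 0.26 and did not pass. The sum was 114, 94.4, 94.5 and 106 CPM in MafLSEC-KO and 112, 103, 98.6 and 124 CPM in control, a log2 fold change of -0.10 ± 0.10 (adjusted p = 0.615). The groups were apart at the distal element and overlapped in the sum. They were also apart, with MafLSEC-KO below, at the peaks 6.4 kb upstream (log2 fold change -0.35) and 21.9 kb downstream (-1.18).

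On chromosome 7, Tnfrsf22, Tnfrsf23 and Tnfrsf26 form a cluster of 92.9 kb. Tnfrsf22 and Tnfrsf23 encode decoy receptors of TRAIL in the mouse. The copies are alike in sequence, so the reads of 1 may have been placed at another, and their values are uncertain to that extent. An intronic peak of Tnfrsf26, 6.4 kb downstream of its start, rose, with 14.3, 10.9, 9.61 and 11.6 CPM in MafLSEC-KO and 5.45, 4.60, 3.49 and 5.87 CPM in control. The groups were well apart, with a log2 fold change of 1.23 ± 0.22 (SE, adjusted p = 0.000667). The other 6 peaks of the cluster had log2 fold changes between -0.10 and 0.37. As sums, Tnfrsf26 had 42.7, 40.0, 35.9 and 38.9 CPM in MafLSEC-KO and 29.9, 32.8, 32.2 and 39.8 CPM in control (log2 fold change 0.22 ± 0.12, adjusted p = 0.306). Tnfrsf23 had 51.0, 48.4, 50.1 and 49.9 CPM in MafLSEC-KO and 39.9, 50.9, 41.8 and 43.5 CPM in control (log2 fold change 0.18 ± 0.11, adjusted p = 0.348).

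The gained elements of Tnfrsf26 and Tnfrsf9 and the lost element of Tnfrsf14 are printed as the receptor elements with the smallest p in each direction outside UTRs (plus strand, mm10/GRCm38).
Tnfrsf26 intronic element, centre of the peak, chr7:143621248-143621547: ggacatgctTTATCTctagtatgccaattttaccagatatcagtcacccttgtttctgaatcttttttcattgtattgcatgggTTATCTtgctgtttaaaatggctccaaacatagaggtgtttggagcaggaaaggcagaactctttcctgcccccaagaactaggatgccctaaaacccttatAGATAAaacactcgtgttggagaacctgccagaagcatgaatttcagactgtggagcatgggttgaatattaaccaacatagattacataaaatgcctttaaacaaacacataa
Tnfrsf9 upstream element, whole peak, chr4:150917752-150918009: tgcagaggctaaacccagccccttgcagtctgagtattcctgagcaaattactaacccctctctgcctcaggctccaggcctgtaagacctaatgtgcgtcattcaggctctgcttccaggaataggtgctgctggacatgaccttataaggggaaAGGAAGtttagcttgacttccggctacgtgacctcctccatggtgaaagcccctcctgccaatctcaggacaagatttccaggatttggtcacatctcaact
Tnfrsf14 upstream element, whole peak, chr4:154933532-154933728: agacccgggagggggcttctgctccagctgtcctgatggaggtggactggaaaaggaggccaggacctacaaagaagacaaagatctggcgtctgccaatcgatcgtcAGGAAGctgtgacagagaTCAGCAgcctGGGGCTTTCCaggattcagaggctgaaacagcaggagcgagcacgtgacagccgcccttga
The Tnfrsf26 window held 3 GATA matches, a number reached by 0.21% of the windows of 47128 peaks, where 15.9% hold at least 1. The Tnfrsf9 peak held 1 ETS match. The Tnfrsf14 peak held 1 match each to the MAF core, ETS and NF-kB, the last found in 8.8% of windows. Over all called member windows of 300 bases, GATA was found in 5 of 11 that rose and 0 of 6 that fell, and ETS in 4 of 11 that rose and 5 of 6 that fell. AP-1 was found in 1 of 11 that rose and 2 of 6 that fell, and NF-kB in 3 of 11 that rose and 1 of 6 that fell. Of the windows of the 47128 peaks, 47.5% held an ETS match and 11.3% an AP-1 match. With so few windows, and with motifs chosen after the values were seen, these counts and shares are a description.

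Several receptors with known ligands had open peaks and no call. The promoter peak of Cd40, the receptor that activates endothelium and antigen-presenting cells on contact with T cells, gave 29.2, 31.6, 25.98 and 32.4 CPM in MafLSEC-KO and 22.9, 25.3, 24.2 and 28.5 CPM in control. The groups overlapped (log2 fold change 0.23 ± 0.13, adjusted p = 0.291). Ltbr, the lymphotoxin beta receptor, had 57.6, 68.4, 62.0 and 63.6 CPM in MafLSEC-KO and 60.7, 66.6, 70.3 and 77.0 CPM in control (log2 fold change -0.13 ± 0.10, adjusted p = 0.507). Tnfrsf12a, the receptor of TWEAK, had 22.5, 18.9, 21.2 and 21.2 CPM in MafLSEC-KO and 18.3, 16.6, 20.5 and 22.1 CPM in control (log2 fold change 0.11 ± 0.14, adjusted p = 0.711). The receptors of lymphocytes Tnfrsf13b (TACI), Tnfrsf17 (BCMA), Tnfrsf18 (GITR) and Tnfrsf25 (death receptor 3) had log2 fold changes of their sums between -0.16 and 0.36 and no call.

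Levels were compared between genes per kilobase of peak, since the summed peak width differed from 0.421 kb at Tnfsf11 to 8.33 kb at Tnfsf10. The 5 genes with the highest control level were Tnfrsf1a, Tnfrsf23, Ltbr, Tnfsf13 and Cd70. In MafLSEC-KO LSECs their levels, in this order, were 29.9 ± 1.4, 34.3 ± 0.7, 24.8 ± 1.8, 22.1 ± 2.8 and 14.7 ± 1.9 CPM per kb (SD, n = 4). In control LSECs they were 32.7 ± 3.6, 30.3 ± 3.3, 27.0 ± 2.7, 26.9 ± 5.1 and 26.6 ± 3.5 CPM per kb (SD, n = 4). In control the SD ranges of neighbours in this order overlapped. The lowest control levels were at Tnfsf11, with 9.2 ± 1.2 CPM per kb in MafLSEC-KO and 6.4 ± 2.7 in control, and at Tnfrsf17, with 8.6 ± 2.0 in MafLSEC-KO and 6.8 ± 2.4 in control. Among the genes whose sums passed, Cd70 was at place 25 of 34 in MafLSEC-KO and 5 in control, and Tnfsf8 at 32 in MafLSEC-KO and 12 in control. Tnfsf18 was at place 14 in MafLSEC-KO and 28 in control, Tnfrsf9 at 24 in MafLSEC-KO and 31 in control, and Tnfrsf11a at 19 in MafLSEC-KO and 25 in control. The median level of the members was 17.1 CPM per kb in MafLSEC-KO and 15.8 in control, beside 19.6 in MafLSEC-KO and 20.1 in control over all genes.

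**Figure D5:**
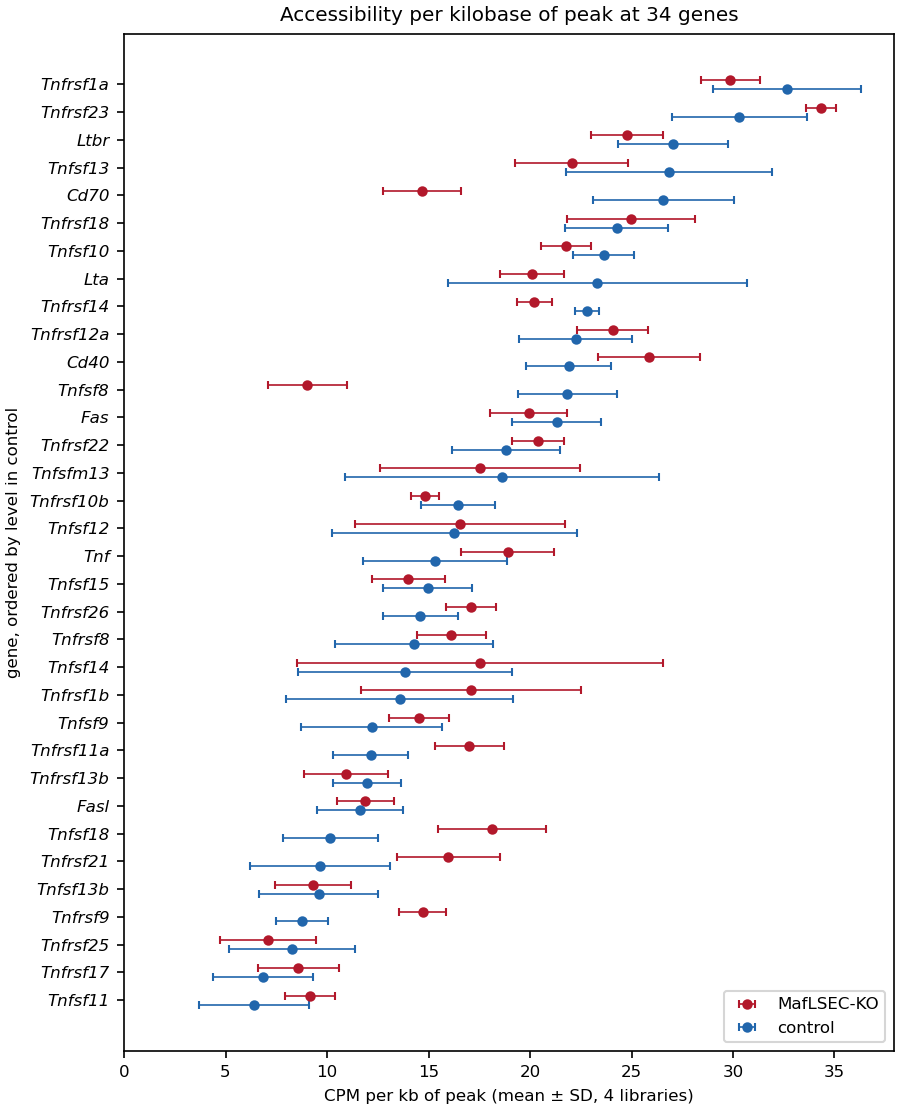
Accessibility per kilobase of peak (CPM per kb, mean ± SD of 4 libraries) for the 34 member genes, ordered by the control level, with MafLSEC-KO in red above control in blue. Most pairs overlap; Tnfsf8 (9.0 in MafLSEC-KO, 21.8 in control) and Cd70 (14.7 in MafLSEC-KO, 26.6 in control) sit to the left of control, and Tnfsf18 (18.1 in MafLSEC-KO, 10.2 in control) and Tnfrsf9 (14.7 in MafLSEC-KO, 8.8 in control) to the right.

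By position, the changes lay mostly away from starts. Classes were those of the deposited annotation. Of the 101 tested member peaks, 47 were intergenic, 31 intronic, 12 at promoters and 11 in exons, UTRs or gene ends. This annotation counts as intergenic the lost Tnfsf10 peak and the gained Tnfrsf9 peak, at whose centres GENCODE M21 places introns. Intergenic peaks included 5 that rose and 6 that fell, intronic ones 5 that rose and 0 that fell, and promoters 1 that rose and 0 that fell. Over all peaks, 10.2% of intergenic peaks rose and 7.63% fell, 9.45% of intronic peaks rose and 7.27% fell, and 5.48% of promoter peaks rose and 1.65% fell. Within 1000 bases of a start, 22 members each had 1 peak. Of these the Tnfsf18 and Tnfrsf21 peaks rose and the other 20 had log2 fold changes between -0.27 and 0.73. Among all peaks that near to a start, 6.03% rose and 1.75% fell. Within 100 kb of the Cd70 element 12 other peaks were tested, within 100 kb of the Lta element 22, and within 100 kb of the lost Tnfsf8 element 2, and none of them passed in either direction. Over all tested peaks 8.97% rose and 6.45% fell. Every other called member element had a called neighbour within 100 kb, peaks of the same gene included. Around each lost Tnfrsf14 element 1 of 15 rose and 1 fell. Around the lost Tnfrsf1a element 1 of 23 fell, and around the lost Tnfsf10 element 1 of 19 fell. Around the Tnfrsf11a element 42.4 kb downstream, 3 of 8 other peaks rose, those of Tnfrsf11a included, and 2 fell.

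Among other genes of the pathway, 1 was called. Of 32 listed genes, called adaptors below, 31 had peaks, and 1 sum rose and 0 fell, against 5.65% and 4.05% of all sums. Most of them are adaptors, kinases or deubiquitinases downstream of the receptors, and others, such as Adam17, Casp8 and Daxx, are not of these classes. Map3k5, which encodes ASK1, a kinase upstream of JNK and p38, had 76.0, 71.2, 86.2 and 72.8 CPM over 6 peaks in MafLSEC-KO and 51.9, 36.1, 56.4 and 38.7 CPM in control. It was higher in all 4 knockout libraries, with a log2 fold change of 0.75 ± 0.14 (SE, adjusted p = 0.00438). The median log2 fold change of the list was 0.03, beside -0.02 over all sums, and the TRAF genes, Tradd, Ripk1, Casp8, Tnfaip3 and Map3k14 were among the 30 without a call. Leaving out control replicate 3 gave 2 adaptor sums that rose, and leaving out control replicate 4 gave 1 that fell. Superfamily members outside the name rule, Eda, Edar, Eda2r and Relt, had peaks and no call.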

How the data were processed

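Members and gene lists were chosen with earlier results of these data known. Per the methods, the authors aligned trimmed reads to mm10 (Bowtie2), dropped PCR duplicates (Picard) and blacklisted regions, called peaks (MACS2), joined those of the 2 genotypes and counted reads in each joined peak (bedtools 2.30.0), with names from HOMER 4.11. The deposited table holds these raw counts for every library, and they were used here. It also holds the authors' signal (counts divided by a size factor per library), the authors' RPKM per peak, the deposited distances to transcription starts, and the authors' own comparison from DESeq2 1.42.1 (fold change, standard error, p-values), which was not used. Whether peaks were called per library or on pooled libraries, and whether read ends were shifted for the Tn5 offset, is not given in the sources used here.

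Counts of single peaks, and counts summed per gene name, were tested over the whole table with edgeR 4.0.16 in R 4.3.3 (filterByExpr, TMM, quasi-likelihood test, two-sided, Benjamini-Hochberg, adjusted p under 0.05). The filter left 58268 peaks and 17745 genes. SE is the fold change over the root of F. The scripts were tested on simulated data. Alternatives were DESeq2 1.42.0, other scaling and filters, a replicate block, log2 library total as a covariate, leaving out libraries, and other sets of peaks per gene. Library totals of 5367124 to 13364062 reads limit precision at small peaks. All 58522 peaks lay within GRCm38 chromosome lengths, and 98.4% of 7646 promoter peaks lay within 1000 bases of a GENCODE M21 start of their gene. The place given for a single peak came from GENCODE M21, while counts by class used the deposited annotation. Promoter sequence came from RefSeq (27 of 34 genes matched).

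Values per library were given for each member with a called sum or peak, for the 5 members with the highest control level per kilobase, and for the pairs of Tnf, Ltb, Cd40, Fas, Tnfsf10, Tnfsf11 and Tnfsf12 with their receptors. Sequences were the central 300 bases of up to 6 called peaks with the smallest p in each direction, 1 per gene. A Tnfrsf21 window was left out because it holds UTR bases, 1 other window is not reported here, and the stretch upstream of Tnfsf18 was added after its values were seen. Lists were adaptors, members outside the name rule, and markers of sinusoidal and general endothelium, macrophages, lymphocytes, hepatocytes, stellate cells and cholangiocytes. The 5 of 8 hepatocyte markers with peaks summed to 131 to 159 CPM in MafLSEC-KO and 134 to 153 CPM in control, and the 3 of 5 cholangiocyte markers to 65.1 to 79.3 CPM in MafLSEC-KO and 58.9 to 82.0 CPM in control, with no call.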

Additional observations from a re-analysis of the deposited data

Results flagged for a closer look

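In 106 groups of 4 libraries (34 gene sums and 19 called peaks in both groups), 8 (7.5%) held a library whose gap to the nearest other was large against the range of its group, where chance alone gives about 1 in 20. Single MafLSEC-KO libraries stood apart at Fasl (highest sum 70.1 CPM, next 56.1 CPM), Tnfrsf1a (lowest sum 129.2 CPM, next 142.0 CPM), Tnfrsf8 (lowest sum 30.3 CPM, next 37.3 CPM), Tnfrsf9 (lowest sum 22.5 CPM, next 26.3 CPM), the Tnfrsf14 peak 7.2 kb upstream (lowest 2.73 CPM, next 5.75 CPM) and the Tnfsf10 peak 36.7 kb upstream (lowest 20.1 CPM, next 24.7 CPM). Single control libraries stood apart at Tnfrsf22 (lowest sum 25.3 CPM, next 33.7 CPM) and at the Tnfrsf1b peak 7.4 kb downstream (highest 12.4 CPM, next 5.72 CPM).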

How the results depend on the processing

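Counts of calls moved with a depth covariate, with the replicate block and with the libraries used. With log2 library total as a covariate, 23 member peaks rose and 13 fell (as reported: 12 and 7), and 7 sums rose and 3 fell (as reported: 3 and 2). Without control replicates 1 and 3 together, the shallowest libraries, 20 peaks rose and 10 fell, and 7 sums rose and 3 fell. With promoter peaks alone 1 sum rose and 0 fell. Adaptor sums that rose numbered 1 as reported, 2 with the covariate, 2 without both shallow control libraries and 3 with the replicate block. Leaving out each library in turn gave 10 to 14 peaks that rose, 6 to 10 that fell, 2 to 4 sums that rose, 2 that fell each time, 1 to 2 adaptor sums that rose and 0 to 1 that fell. Over all genes tested the covariate gave 2312 sums that rose and 1975 that fell (as reported: 1002 and 718), and over all peaks 8573 that rose and 6589 that fell (as reported: 5229 and 3761).

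The replicate numbers were not taken as pairs in the reported fit, which had group as its only term. Deviations of same-numbered libraries correlated at 0.191, 0.097, 0.257 and 0.442 for numbers 1 to 4. Libraries with different numbers correlated at -0.323 to 0.212. MafLSEC-KO replicates 1, 3 and 4 correlated best with the control of the same number, and replicate 2 with control replicate 4 (0.150). Whether the numbers mark pairs was not tested. With a replicate block, 5 member sums rose and 2 fell, 16 peaks rose and 11 fell, and 8264 peaks and 2158 sums rose over the whole table, with 6258 and 1917 that fell. The sums of Tnfrsf1b (0.359, adjusted p = 0.00251) and Tnfrsf21 (0.795, adjusted p = 3.41e-07) passed under it.

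Sums that passed under the covariate and without control replicates 1 and 3, beside those in the report, were those of Lta (-0.358 and -0.509), Tnfrsf8 (0.420 and 0.530) and Tnfsf9 (0.459 and 0.642). The sums of Tnfsf8, Cd70 and Tnfsf18 passed under every alternative that gave them a value, with adjusted p of at most 0.00424, 0.0318 and 0.0497.

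Direction turned for 7 sums, none of which passed in any fit. Leaving out single libraries, Fasl ranged from -0.056 to 0.145, Tnfrsf18 from -0.030 to 0.089, Tnfrsf25 from -0.365 to 0.050, Tnfsf12 from -0.186 to 0.262, Tnfsf13b from -0.231 to 0.125, Tnfsf15 from -0.182 to -0.021 and Tnfsfm13 from -0.271 to 0.136. With log2 library total as a covariate Tnfrsf18 was -0.039, Tnfsf13b 0.245 and Tnfsf15 0.029, and without control replicates 1 and 3 Tnfrsf18 was -0.072, Tnfrsf25 0.281, Tnfsf13b 0.282 and Tnfsf15 0.094. With the block Tnfsf12 was 0.005 and Tnfsf13b 0.011, and in DESeq2 Tnfsf12 was 0.003. The cause of these shifts was not tested.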
